A study of Drosophila melanogaster with 2 samples.

Results

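chrU is the part of the Release 5 *Drosophila* assembly that gathers scaffolds not placed on a chromosome. It was taken from the H3K9me2 tag positions of 2 libraries and cut into 300-bp bins from base 1 to the last tag, at 10047726. Of 33493 bins, 19180 (57.3%) held at least 1 tag in either library, against 446655 bins with a tag over all sequences in the files. These 19180 bins covered 5.75 Mb. They held 137188 tags of EHMT+ (1.95% of its library) and 154785 tags of EHMTDD1 (2.20%).

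Chromatin came from homogenized larvae of the last instar, so that all larval tissues contribute. EHMT+ is a strain in which a P-element in the EHMT gene was excised precisely, labelled as wild type. EHMTDD1 comes from an imperfect excision of the same element in the same background, lacks the translational start site of EHMT and is labelled as a knock-out. Each strain descends from 1 excision line and gave 1 library, so differences between them were not checked against replicates and carry no p-value. Intervals are 95% intervals for counting error only. The number and sex of the larvae are not given in the sources used here.

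EHMT, also called G9a, adds methyl groups to lysine 9 of histone H3. The dimethylated form, H3K9me2, is abundant in the repeat-rich heterochromatin around centromeres, on chromosome 4 and on the Y chromosome, where it is bound by repressive proteins such as HP1. In flies the heterochromatic mark depends mainly on other methyltransferases, Su(var)3-9 and Eggless. Unplaced scaffolds are mostly such repeat-rich sequence. Their order along chrU is not an order in the genome, and neighbouring scaffolds may come from different chromosomes, the Y included. No sequence or gene model of this build was used, so the scaffolds, repeats and genes at the positions below are not named.

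The bins with tags were broken into many small pieces. They formed 2304 islands of consecutive bins, with a median length of 5 bins, and 14313 bins (42.7%) had no tag in either library. The longest island covered 63.0 kb, from 1314601 to 1377600, with 6019 tags of EHMT+ and 6590 of EHMTDD1. The longest stretch without tags covered 126.3 kb, from 691801 to 818100. Only tags with a single position in the genome had been kept, so a bin without tags cannot be read as lacking H3K9me2. In 4723 of the bins with a tag (24.6%) no 36-bp read lay in the bin, and the tag reached it by its extension to 300 bp. On the reference arms 2L, 3L and 3R, taken without 1 Mb at the centromeric end, this held for 0.610% of bins.

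Most bins of chrU held few tags and a small set was as dense as the densest bins of the arms. At the median a chrU bin held 4 EHMT+ tags and 3 EHMTDD1 tags, and a bin of the reference arms 29 and 28. In EHMT+, 69.2% of chrU bins had under 10 tags, against 1.72% on the arms. At the other end, 6.90% of chrU bins had 60 or more EHMT+ tags, against 3.70% on the arms. The upper tail was longer in EHMTDD1: 764 bins (3.98%) had 100 tags or more in that library and 201 (1.05%) in EHMT+. The 99th percentile was 169 tags in EHMTDD1 and 100 in EHMT+, and on the arms it was 95 and 80. At the low end, 4090 bins (21.3%) had no EHMTDD1 tag and 1351 (7.04%) no EHMT+ tag. The tags of chrU were therefore more unevenly spread in the mutant library. The 10% of bins highest in each library held 52.2% of the EHMT+ counts and 63.6% of the EHMTDD1 counts, and on the arms 19.8% and 23.1%.

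**Figure D1:**
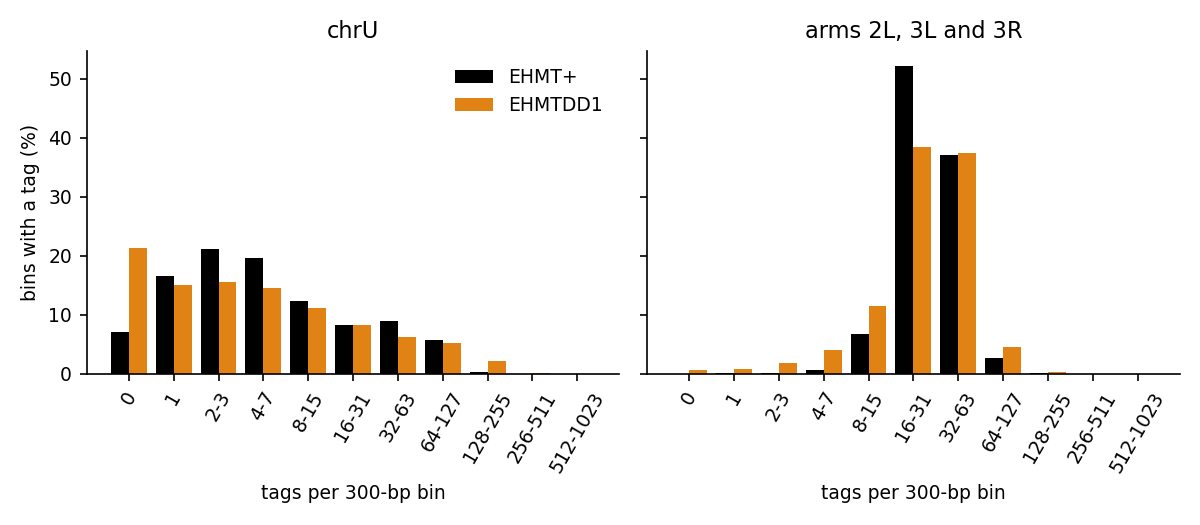
Share of 300-bp bins with a tag (y axis, percent) by the number of tags per bin (x axis, classes that double in width) in EHMT+ (black) and EHMTDD1 (orange), for chrU on the left and for arms 2L, 3L and 3R on the right. The arms have a single peak around medians of 29 and 28 tags, whereas chrU is spread from 0 to 579 tags, and 21.3% of its bins have no EHMTDD1 tag.

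Averaged over bins with a tag, chrU was below the arms in both libraries. With each tag counted once by its midpoint, EHMT+ had 23.8 tags per kb on chrU and 51.6 on the arms, or 0.462 times the arm level (0.460 to 0.465, exact conditional binomial). For EHMTDD1 the densities were 26.9 and 51.8 tags per kb, or 0.520 times (0.517 to 0.522). The direction rested on the sparse bins and reversed without them. Among bins with 20 or more tags in both libraries together, chrU was above the arms, with 1.27 times the density of the arms in EHMT+ and 1.51 times in EHMTDD1. The other unplaced sequence, chrUextra, had 0.172 and 0.177 times the density of the arms. The pooled heterochromatic scaffolds assigned to a chromosome (2LHet, 2RHet, 3LHet, 3RHet, XHet and YHet) had 1.41 and 1.52 times. Within this pool YHet was far below the arms, with 0.130 times their density in EHMT+ and 0.0968 times in EHMTDD1. For 3LHet these values were 1.52 and 1.61. No input library was used, so H3K9me2, the number of copies of a sequence and the share of it that can be mapped cannot be told apart in these levels.

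Bins of longer islands held more tags. The 3136 bins in islands of 1 to 4 bins held 2 EHMT+ tags and 1 EHMTDD1 tag at the median. The 2045 bins in the 28 islands of 50 bins or more had medians of 40 and 28 tags. Tags lay on the plus strand in 50.04% of cases in EHMT+ and 50.3% in EHMTDD1, and no start and strand occurred more than once in a library. This leaves a ceiling of 1198 tags in a bin. The highest bin, from 5631901 to 5632200, held 416 tags of EHMT+ and 579 of EHMTDD1, or 34.7% and 48.3% of that ceiling.

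chrU as a whole had more tags in the mutant. The total in EHMTDD1 was 1.13 times that in EHMT+ (1.12 to 1.14), whereas on the arms it was 1.00 times. The ratio of these ratios was 1.12 (1.12 to 1.13, odds ratio of the 4 totals), larger than counting error. Against single arms it was 1.15 for 2L, 1.13 for 3L and 1.10 for 3R. Against the heterochromatic scaffolds it was 1.04 (1.03 to 1.05), since these also had more tags in EHMTDD1, 1.08 times as many. Against chrUextra it was 1.10 (1.08 to 1.11). The totals of the libraries had been equalized over all sequences, so these values are shares of a library and not absolute amounts. On YHet, the scaffolds assigned to the Y chromosome, EHMTDD1 had 0.750 times the tags of EHMT+ (0.689 to 0.816), the opposite direction to chrU as a whole. YHet was sparse, with 6.68 EHMT+ and 5.01 EHMTDD1 tags per kb over 634 bins with a tag. Sparse parts of chrU leaned the same way as YHet. In 10-kb segments of chrU with under 100 tags in both libraries together, EHMTDD1 had 0.824 times as many tags. The share of males in each pool of larvae was not tested.

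The bins of chrU moved both ways. The methylation ratio of a bin was log2((EHMT+ + 1)/(EHMTDD1 + 1)), so positive values are a loss in the mutant. It had a median of 0.00 on chrU and on the arms, and an SD of 1.32 on chrU and 0.87 on the arms. The SD was 1.35 in the heterochromatic scaffolds and 1.28 on chrUextra, so the width was not particular to chrU. Only 25.4% of chrU bins were within 0.5 of 0, against 57.1% on the arms. Limits were taken from the arms as their mean and 2 SD to either side, at 1.89 (3.72-fold) and −1.57 (2.97-fold). Above the upper limit were 2501 bins of chrU, or 13.0% (Wilson interval 12.6 to 13.5%), against 4.996% of the arms. The background over all sequences was 6.82%. Below the lower limit were 1217 bins, or 6.35% (6.01 to 6.70%), against 0.234% of the arms and a background of 0.976%. Bins above outnumbered bins below by 2.06 times on chrU and by 21.3 times on the arms. The heterochromatic scaffolds had more bins above than chrU, 16.2% (15.7 to 16.7%), and fewer below, 2.13% (1.94 to 2.33%). chrUextra was closer to chrU, with 11.3% and 7.79%. Neighbouring bins share tags, so Wilson intervals over bins are too narrow. With each tag counted once by its midpoint, 15692 chrU bins held a tag, and limits taken anew from the arms were wider, at 2.43 and −1.93. Then 6.02% of chrU bins and 5.54% of arm bins were above, and 3.403% and 0.305% below. Whether single counting, the wider limits or the lower counts per bin made the difference on the side of loss smaller was not tested. Among bins that contained a 36-bp read, with overlap counts and the limits of 1.89 and −1.57, 14.3% of chrU and 4.94% of the arms were above. Below were 5.54% and 0.198%.

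**Figure D2:**
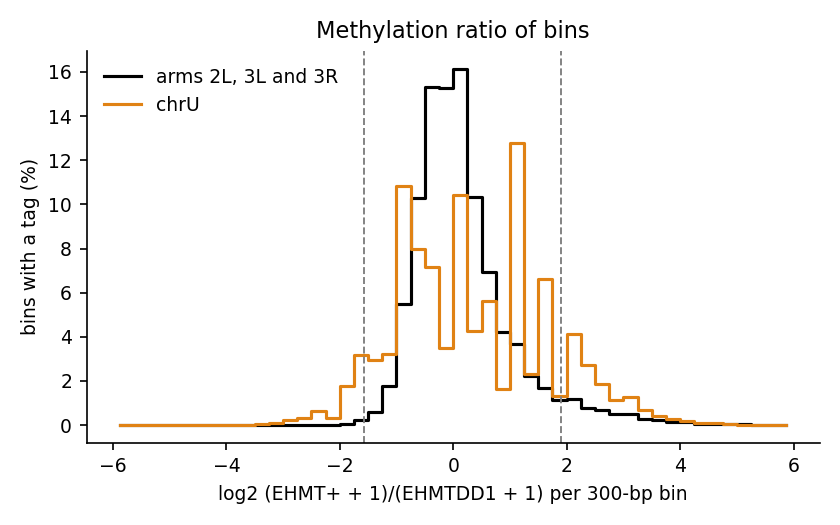
Distribution of the methylation ratio, log2((EHMT+ + 1)/(EHMTDD1 + 1)), per 300-bp bin (x axis) as a percentage of bins with a tag (y axis), for chrU (orange) and arms 2L, 3L and 3R (black), with the limits of −1.57 and 1.89 dashed. chrU is wider on both sides, with 13.0% of bins above and 6.35% below the limits. Its separate spikes are ratios of small whole counts.

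Most of these bins rested on few tags. The bins above the upper limit had a median of 7 EHMT+ tags and 0 EHMTDD1 tags, and in 1561 of 2501 the EHMT+ count was under 10. With no EHMTDD1 tag, 3 EHMT+ tags are enough to pass the limit. With no EHMT+ tag, 2 EHMTDD1 tags are enough on the other side, where the median was 0 and 5 tags. That count was sensitive to the limit. With whole reference arms the lower limit moved from −1.57 to −1.60, where 2 tags no longer sufficed, and 739 bins were below instead of 1217. At least 20 tags in both libraries together were found in 574 of the bins above and in 173 of those below. At least 25 EHMT+ tags were found in 444 of the bins above, and at least 25 EHMTDD1 tags in 112 of those below. From islands of 1 to 4 bins to islands of 50 bins or more, the share of bins above the upper limit went from 11.8% to 14.4%, and the share below the lower limit from 7.49% to 2.30%.

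The bins of chrU and the arms were then sorted by their tags in both libraries together. From 1 to 79 tags the share of chrU bins above the upper limit hardly moved, from 14.03% at 10 to 19 tags to 15.8% at 40 to 79 tags. On the arms it was 23.9% at 1 to 9 tags, 39.1% at 10 to 19, 15.4% at 20 to 39 and 2.03% at 40 to 79. By this sorting the arms were above chrU at under 20 tags and below it from 40 tags. At the usual arm level of 40 to 79 tags chrU thus had 248 of 1570 bins above the limit (15.8%, 14.1 to 17.7%), and the heterochromatic scaffolds had more, 26.1% (24.8 to 27.5%). At 80 to 119 tags the shares were 4.88% on chrU, 12.8% in these scaffolds and 0.539% on the arms. Few bins of chrU passed at higher levels, 11 of 882 at 120 to 199 tags and 1 of 499 at 200 or more. The sum includes the EHMTDD1 count, and arm bins of 10 to 19 tags had medians of 12 EHMT+ and 4 EHMTDD1 tags. Sorted by EHMT+ alone, chrU was above the arms at 5 to 14 tags, with 21.2% (20.1 to 22.4%) against 9.20% (8.72 to 9.71%). At 15 to 29 EHMT+ tags the shares were 18.1% and 5.15%, and at 0 to 4 they were 8.58% and 10.2%.

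On the side of gain, sorted by the tags of both libraries together, chrU was above the arms in each class from 10 to 199 tags. Below the lower limit were 8.46% of chrU bins at 10 to 19 tags, 4.97% at 20 to 39, 2.61% at 40 to 79 and 2.11% at 80 to 119. On the arms these shares were 0.705%, 0.321%, 0.156% and 0.0782%. In the heterochromatic scaffolds they were 5.80%, 3.07%, 0.750% and 0.467%, so that chrU was above these as well. In bins of 1 to 9 tags the intervals of chrU and the arms overlapped, at 7.59% and 6.17%. chrUextra had 9.51%, 7.08%, 2.94% and 2.46% from 10 to 119 tags, each at or above chrU, so this width was not particular to chrU. These classes include the EHMTDD1 tags that are compared. Sorted by EHMT+ alone, 10.9% (10.3 to 11.5%) of chrU bins with 0 to 4 tags were below, against 12.2% (10.6 to 14.0%) on the arms. At 5 to 14 tags the shares were 2.22% and 2.11%, and at 15 to 29 tags 1.55% and 0.0738%. Of the 1217 chrU bins below the limit, 1077 had 0 to 4 EHMT+ tags and 103 had 5 to 14. On chrU 9896 bins had 0 to 4 EHMT+ tags, and on the arms 1445 of 233435.

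Among the densest bins most had more tags in the mutant. Of the 499 chrU bins with 200 tags or more, 479 (96.0%) had a negative ratio. Their median counts were 91 tags in EHMT+ and 155 in EHMTDD1, with a median ratio of −0.82. The same lean was present on the arms, with 1161 of 1286 such bins (90.3%) negative and a median of −0.51, and in the heterochromatic scaffolds, with 2326 of 2501 (93.0%) and −0.68. Sorting by the sum of tags favours the library with the wider spread, so bins were also sorted by EHMT+ alone, which favours the opposite direction. Among chrU bins with 60 to 99 EHMT+ tags, the median was 73 tags in EHMT+ and 92 in EHMTDD1, and 62.8% (59.9 to 65.6%) had a negative ratio, against 46.8% (45.7 to 47.9%) on the arms. At 100 EHMT+ tags or more, 149 of 201 chrU bins (74.1%, 67.7 to 79.7%) were negative, against 63.9% (60.8 to 66.9%) on the arms. The heterochromatic scaffolds had 53.9% negative at 60 to 99 tags and 70.1% (67.7 to 72.4%) at 100 or more. chrUextra had 62.8% and 63.0%, so the shares on chrU were not particular to it. At 30 to 59 EHMT+ tags the chrU median was 0.00, with 43 tags against 42, yet 16.3% of bins were above the upper limit, against 4.21% on the arms. The heterochromatic scaffolds had 18.7% and chrUextra 13.9% above, so this share was not particular to chrU either.

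**Figure D3:**
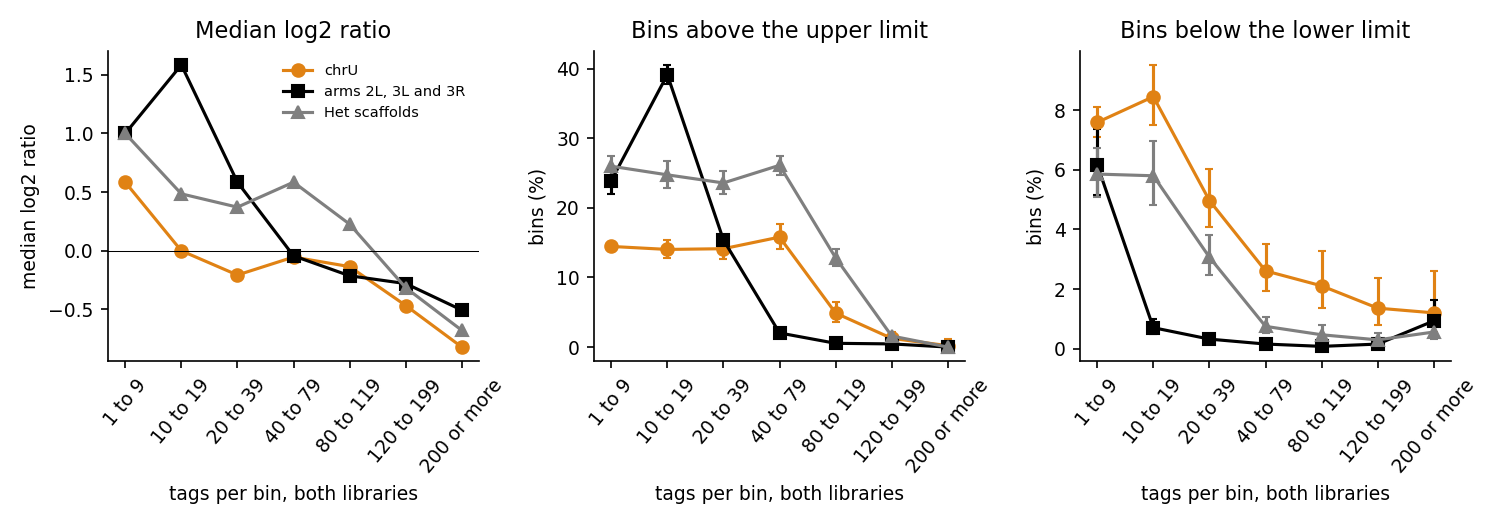
Median methylation ratio (left, log2), bins above the upper limit (middle, percent) and bins below the lower limit (right, percent) by the number of tags per bin in both libraries together (x axis), for chrU (orange circles), arms 2L, 3L and 3R (black squares) and the heterochromatic scaffolds (grey triangles). Bars are Wilson 95% intervals. The median falls to −0.82 on chrU at 200 tags or more, and the share above the limit on chrU stays between 14.03 and 15.8% up to 79 tags.

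Changed bins came in groups. Of the bins above the upper limit, 1874 (74.9%) lay in runs of 2 or more, and 126 runs had at least 4 bins. Below the lower limit 695 bins (57.1%) lay in such runs, and 23 runs had at least 4 bins. Neighbouring bins share extended tags, so runs of 2 or more are in part built in. No run counts of the arms are set beside these, so they cannot be read as particular to chrU. The ratio also went together over longer distances. Between bins with at least 20 tags, the Pearson r of the ratio was 0.51 at a distance of 600 bp, 0.40 at 900 bp and 0.26 at 1500 bp on chrU. On the arms it was 0.20, 0.13 and 0.11. At 6000 bp it was 0.07 on chrU over 2384 pairs and 0.06 on the arms. These correlations are across bins, which are not independent, and are given as a description.

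The longest run of loss covered 11 bins from 2130601 to 2133900, with 59 tags of EHMT+ and 6 of EHMTDD1 (9.83-fold, 4.26 to 27.9). Its bins had at most 20 tags in EHMT+ and 3 in EHMTDD1, so it lay in sparsely tagged sequence. The next run was at or above the median of the arms in EHMT+ in 9 of its bins. It covered 10 bins from 3434701 to 3437700. EHMT+ had 266 tags there and EHMTDD1 24, 11.1 times fewer (7.29 to 17.6). Along it the EHMT+ counts per bin were 94, 52, 51, 47, 49, 69, 67, 62, 38 and 9 tags. The EHMTDD1 counts were 16, 2, 4, 3, 0, 6, 11, 6, 1 and 0 tags. In a run of 9 bins from 1919701 to 1922400 the totals were 213 and 15 tags, 14.2-fold apart (8.42 to 25.8), with EHMT+ counts of 32 to 71 per bin and EHMTDD1 counts of 1 to 9. Of the other named runs of 9 bins, that from 2616601 to 2619300 had 141 EHMT+ tags and 14 EHMTDD1 tags. The one from 996001 to 998700 had 103 and 13.

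Runs of gain were shorter. One of 8 bins from 6314101 to 6316500 had 36 tags of EHMT+ and 239 of EHMTDD1, a ratio of 6.64 in favour of the mutant (4.66 to 9.71). Its EHMT+ counts per bin were 1, 3, 6, 15, 17, 11, 9 and 7 tags, and its EHMTDD1 counts were 18, 49, 63, 108, 107, 56, 45 and 31 tags. Both libraries thus had a peak at the same place and of different height. A second run of 8 bins, from 1485301 to 1487700, was sparse, with 6 and 44 tags. A run of 6 bins from 1476901 to 1478700 had 32 EHMT+ tags and 188 EHMTDD1 tags (5.88-fold, 4.02 to 8.84). Another, from 5885701 to 5887500, had 7 and 72 (10.3-fold, 4.74 to 26.5). A run of 5 bins from 5550601 to 5552100 had 5 and 29 tags.

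Where one library had no read over 300 bp or more and the other had 12 reads or more, the empty library was mostly the mutant. On chrU 315 stretches lacked EHMTDD1 reads, or 54.7 per Mb of bins with a tag, fewer than the 71.4 per Mb of the arms and the 98.0 per Mb of the heterochromatic scaffolds. They were longer, with a median of 1225 bp against 440 and 509 bp, and covered 145 kb per Mb on chrU, 38.6 on the arms and 162 in the heterochromatic scaffolds. A stretch can run through bins without a tag in either library, which are frequent on chrU. The reverse held for 16 stretches on chrU, or 2.78 per Mb, against 0.343 per Mb on the arms and 0.160 in the heterochromatic scaffolds. The stretch without EHMTDD1 reads that held most EHMT+ reads was 789 bp long, from 1592571 to 1593359, with 60 reads. The stretch without EHMT+ reads that held most EHMTDD1 reads was 2100 bp long, from 6316655 to 6318754, with 22 reads. It began just after the longest run of gain.

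At the scale of 10 kb the tags were concentrated in few places. Of 1005 segments, 977 held a tag, with a median of 80 tags in both libraries together, against 969 on the arms, and 438 segments had at least 100. The 100 densest segments held 53.2% of the EHMT+ tags of chrU and 57.0% of the EHMTDD1 tags, and 92 of them lay in the first 4 Mb. The first 4 Mb held 75.2% and 76.2% of all chrU tags. The first Mb had 34532 and 42742 tags, and the tenth Mb 2578 and 2420 tags, although 66.1% and 53.4% of their bins held a tag. The ratio of EHMTDD1 to EHMT+ was 1.24 (1.22 to 1.26) in the first Mb, the highest of the 10 full Mb, and 0.939 (0.888 to 0.993) in the tenth. The share of bins above the upper limit was 15.3% in the first Mb and 9.32% in the tenth, and the share below the lower limit 4.49% and 8.65%.

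The 10 densest segments all had more tags in EHMTDD1. The densest, from 5630001 to 5640000, had 2119 tags of EHMT+ (2030 to 2211, exact Poisson) and 2451 of EHMTDD1 (2355 to 2550), 1.16 times as many (1.09 to 1.23). It contained the highest bin, 8 of its 34 bins held no tag, and it was the only one of the 10 beyond the first 4 Mb. The second, from 1970001 to 1980000, had 1428 and 2254 tags, 1.58 times as many (1.48 to 1.69). The third, from 70001 to 80000, had 1300 and 2089 tags, 1.61 times as many (1.499 to 1.72), the largest ratio among the 10. The segments from 1250001, 400001, 130001 and 210001 had 1.35, 1.54, 1.54 and 1.41 times as many tags in the mutant. Those from 1340001, 2080001 and 390001 had 1.15, 1.16 and 1.18 times. The last 3 held 8, 3 and 5 bins above the upper limit of loss, so that a segment with more mutant tags could contain bins of loss.

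How far dense segments leaned to the mutant depended on how they were ranked. Ranked by the tags of both libraries together, the 50 densest had 1.34 times as many EHMTDD1 tags (1.32 to 1.35) and 46 of them had a negative ratio, while the 567 segments under 100 tags had 0.824 times as many (0.803 to 0.845). This ranking uses the counts that are then compared, and it favours the library with the wider spread. Ranked by EHMT+ alone, the 50 densest had 1.18 times as many EHMTDD1 tags (1.17 to 1.20) and 35 were negative. The 100 densest then had 1.17 times (1.16 to 1.18), the next 100 had 1.11 times (1.09 to 1.13) and the 100 after those 1.18 times (1.16 to 1.21), with no steady change with the level. The other 705 segments had 0.990 times as many (0.971 to 1.01). Ranked by EHMTDD1 alone, which favours the mutant at the top, the 100 densest had 1.28 times and the 705 sparsest 0.826 times as many.

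**Figure D4:**
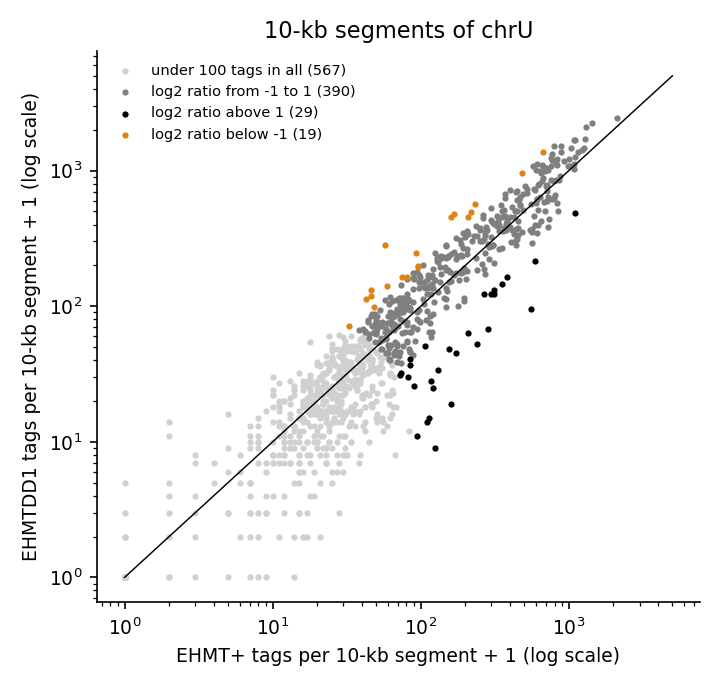
Tags per 10-kb segment of chrU in EHMT+ (x axis, log scale) and EHMTDD1 (y axis, log scale), with 1 added to both and the line of equal counts. Segments under 100 tags in all are light grey, those with a log2 ratio from −1 to 1 dark grey, the 29 above 1 black and the 19 below −1 orange. The 10 densest segments lie above the line.

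Segments with a strong change were more frequent than on the arms in both directions. Among the 438 segments with at least 100 tags, 29 (6.62%, 4.65 to 9.35%) had a log2 ratio above 1, against 35 of 7189 (0.487%) on the arms and a background of 1.70%. Below −1 were 19 (4.34%, 2.79 to 6.68%), against 3 on the arms (0.0417%) and a background of 0.272%. The heterochromatic scaffolds had 5.17% above and 0.838% below (0.385 to 1.82%). chrUextra was like chrU, with 7.14% above (4.13 to 12.1%) and 4.17% below (2.03 to 8.35%) among 168 segments. The SD of the ratio was 0.75 on chrU, 0.68 on chrUextra, 0.55 in the heterochromatic scaffolds and 0.27 on the arms. These shares compare segments of unlike tag levels. The medians were 149 EHMT+ and 171.5 EHMTDD1 tags on chrU, and 483 and 486 on the arms. Among the 100 densest chrU segments, with 881 or more tags in both libraries together, 1 was above 1 and 2 were below −1. Among the 138 sparsest of the 438, with 100 to 178 tags, 15 were above and 5 below. The 29 segments of loss held 154 EHMT+ tags and 44 EHMTDD1 tags at the median, and 289 of their 649 bins with a tag (44.5%) passed the upper limit. The 19 segments of gain had medians of 92 and 197 tags, and 98 of their 454 bins (21.6%) passed the lower limit.

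Of the 5 segments with the highest ratio, 3 were neighbours. From 4790001 to 4820000, they had 158, 110 and 123 tags of EHMT+ and 18, 13 and 8 tags of EHMTDD1. Together these were 391 and 39 tags, a 10.03-fold difference (7.20 to 14.3). The last of them had the highest ratio of all, a log2 value of 3.78, in only 14 bins with a tag. In the segment from 3420001 to 3430000 EHMT+ had 94 tags and EHMTDD1 10, 9.40 times fewer (4.89 to 20.2). It was the middle of another group of loss, from 3410001 to 3440000, where 778 EHMT+ tags stood against 138 (5.64-fold, 4.70 to 6.81). This group included the run of 10 bins described above. The fifth, from 2620001 to 2630000, held 113 EHMT+ tags and 14 EHMTDD1 tags (8.07-fold, 4.62 to 15.2). It began less than 1 kb beyond the run of loss that ended at 2619300.

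The segment with the lowest ratio, from 6310001 to 6320000, had 56 tags of EHMT+ and 284 of EHMTDD1, 5.07 times as many (3.80 to 6.88), most of them in the run of 8 bins. The 20 kb that followed, from 6320001 to 6340000, changed the other way, with 469 EHMT+ tags against 171 (2.74-fold, 2.30 to 3.29). A pair of the 5 lowest segments adjoined, and from 1460001 to 1480000 there were 324 EHMT+ tags and 932 EHMTDD1 tags, 2.88 times as many in the mutant (2.53 to 3.27). This pair contained the run of gain that began at 1476901. The longest group of gain covered 4 segments from 290001 to 330000, and EHMTDD1 had 3075 tags there to 1447 of EHMT+, 2.13 times as many (1.996 to 2.26). The remaining segments of lowest ratio began at 7430001, where 45 EHMT+ tags stood against 131, and at 4010001, where 92 stood against 245. Whether copy number differed between the strains at these places was not tested.

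**Figure D5:**
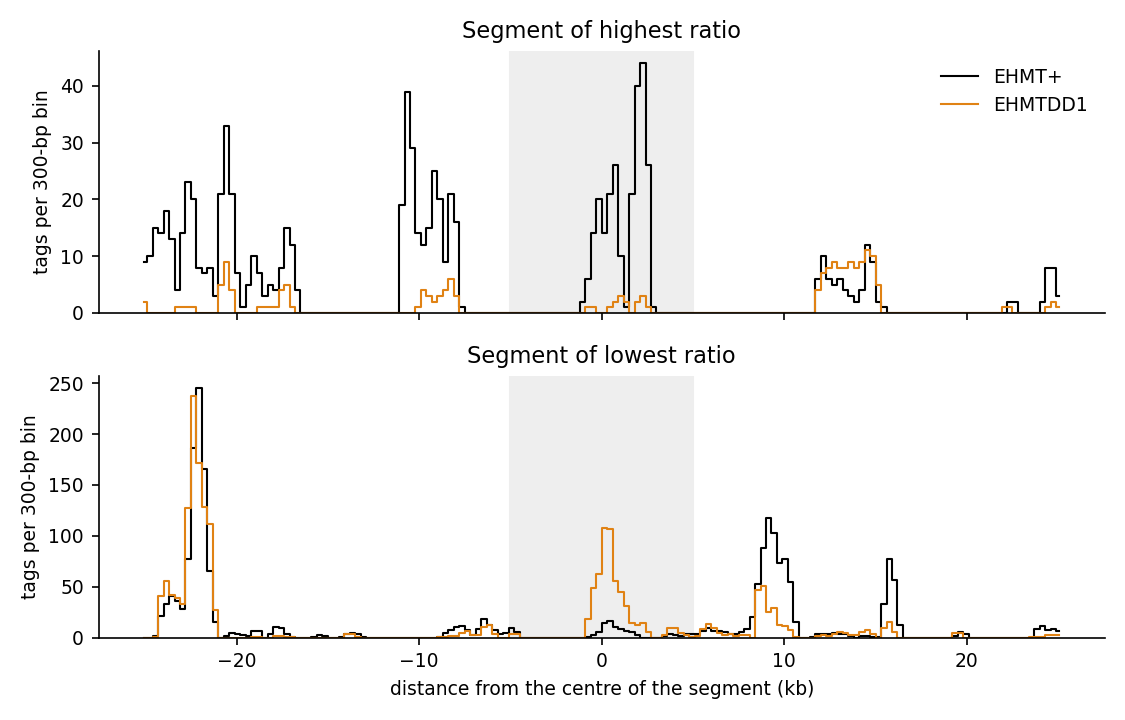
Tags per 300-bp bin (y axis) in EHMT+ (black) and EHMTDD1 (orange) by distance from the centre of a 10-kb segment of chrU (x axis, kb), for the segment with the highest ratio (top) and the segment with the lowest ratio (bottom), each shaded. In the upper panel peaks of up to 44 EHMT+ tags have at most 3 EHMTDD1 tags within the segment. In the lower panel a single peak of 108 EHMTDD1 tags stands over 15 EHMT+ tags in the same bin, and EHMT+ is the higher library in the tallest peaks to its right.

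Despite these local changes, segments and bins dense in one library were mostly dense in the other. Across the 438 segments the log2 counts of the libraries gave r = 0.87 (Pearson) and rho = 0.87 (Spearman), and across the 19180 bins 0.77 and 0.69. On the arms these values were 0.86 and 0.80 over segments and 0.57 and 0.57 over bins. These are descriptions across segments and bins of 2 libraries, and the wider range of levels on chrU enters them.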

How the data were processed

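H3K9me2 ChIP-seq was carried out on larvae of EHMT+ and EHMTDD1, 1 library each. The authors aligned 36-bp reads to BDGP Release 5 (dm3) with the Illumina pipeline, allowing a single mismatch, kept tags with 1 position, lengthened each to 300 bp in its direction and reduced the larger library to the size of the smaller one. The deposited values are the positions and strands of 7043913 extended tags per library, with no other unit. Unique mapping leaves out repeats, and extension carries tags across scaffold ends.

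Tags were counted in every 300-bp bin they overlapped. Bins with no tag in either library were dropped, and 1 was added to both counts before taking log2 ratios. Densities and 10-kb segments used tag midpoints. Segments needed at least 100 tags in both libraries together for a ratio. The reference arms were 2L, 3L and 3R without 1 Mb at the centromeric end, and the last tag stood for the end of a sequence. Regions named are the 10 segments with most tags, the 5 with the highest and the 5 with the lowest ratio, the 5 longest runs on each side and the richest stretch without reads each way. The joined segments, the single bins and the parts of 1 Mb were chosen after their values were seen. The members and rules were chosen with earlier results of these data known. Counting and run finding were tested on simulated data. Alternatives covered the pseudocount, minimum tags, counting, grid, bin size, centring, limits and reference. Counts were made in Python 3.11.15 with NumPy 2.4.6 and pandas 2.3.3, intervals with SciPy 1.17.1, and plots with Matplotlib 3.10.9.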

Additional observations from a re-analysis of the deposited data

How the results depend on the processing

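No paired analysis was possible because a single library stands for each strain. Of 53 alternative values, 31 moved beyond the counting interval or by more than 1.5 times and 2 reversed, the densities with 20 or more tags, where chrU went from below the arms to above them. The causes were not tested. Requiring a tagged bin on both sides of a bin and ranking segments by 1 library alone were added after the data were seen. Shares of chrU bins above and below the limits, 13.0% and 6.35%, were 8.24% and 4.66% with tags in both libraries, 11.1% and 3.54% with 20 or more tags together, 6.02% and 3.403% by midpoint, 8.69% and 3.12% with 36-bp reads, 20.4% and 7.02% with 600-bp bins, 4.13% and 0.746% with limits of 3 SD, 24.6% and 12.8% with limits of 1 and −1, and 14.1% and 5.53% with a tagged bin on both sides. With a pseudocount of 0.5 the share above was 18.2%, and with whole reference arms the share below was 3.85%. In each setting chrU exceeded the arms on both sides, by 1.09 to 4.64 times above and 4.81 to 34.1 times below. No setting compared chrU and the arms at like tag levels, and the limits changed with most settings. Sorted by EHMT+ tags, 10.9% of chrU bins and 12.2% of arm bins were below at 0 to 4 tags. At 5 to 14 tags the shares were 2.22% and 2.11%. These classes held 1077 and 103 of the 1217 chrU bins below. The median ratio, 0.00, was −0.31 with 20 or more tags. The density relative to the arms, from tag midpoints, was 0.462 in EHMT+ and 0.520 in EHMTDD1. It was 0.274 and 0.308 over all bins, 1.27 and 1.51 with 20 or more tags, and 0.143 and 0.0714 by medians over bins. With whole arms it was 0.449 and 0.508, and with 600-bp bins 0.413 and 0.464. The ratios by medians are not those of the medians of overlap counts given above. Segments with a ratio above 1, 29, numbered 65 with at least 50 tags and 14 with at least 200. A median of 4 and 3 tags, counted by overlap, limits what a single bin of chrU can show.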
